A study of Homo sapiens with 6 samples.

Results

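TSC22D1, a leucine zipper protein first isolated as a transcript induced by TGF-beta, had 3.24-fold higher RNA after knockdown of the long non-coding RNA HOTAIR than with a control small interfering RNA. It is described here with the other genes of the TSC22 domain family, TSC22D2, TSC22D3 and TSC22D4, and with the partners NRBP1, NRBP2 and WNK1. These 7 genes were taken by name out of 19589 features, and each was found by its gene ID. The set was chosen by the fold change and adjusted p of TSC22D1 in this same comparison, where its p-value ranked 9 among the features tested. The differences of the 7 genes are therefore a description and carry no test of their own.

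RNA sequencing covered libraries labelled HepG2, a human liver tumour line, that had received small interfering RNA, in one group directed at HOTAIR (siHOTAIR) and in the other a negative control (siNC). The labels list 3 libraries per group and no time after transfection, and nothing says that they came from separate cultures. Adjusted p-values then measure the spread between libraries, which may be technical. Total RNA was depleted of ribosomal RNA and made into libraries with a stranded kit.

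The TSC22D proteins pair through a short leucine zipper next to a conserved stretch, the TSC box, and each gene yields long or short forms from alternative starts. The long forms bind the pseudokinases NRBP1 and NRBP2, a pairing known in flies from bunched and Madm, the counterparts of the TSC22D and NRBP genes. In human cells these complexes have been tied to WNK kinases, which respond to chloride and cell shrinkage and act through the kinases SPAK and OSR1 on ion cotransporters.

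What the 4 TSC22D genes share is seen best in their coding sequence. The 75 bases below, 25 codons of the TSC box, are shown since they are the stretch by which the family is recognised. They were read from 1 GENCODE 29 (GRCh38) transcript per gene, 5′ to 3′, and capitals mark the 51 bases that are identical in all 4 genes.
TSC22D1: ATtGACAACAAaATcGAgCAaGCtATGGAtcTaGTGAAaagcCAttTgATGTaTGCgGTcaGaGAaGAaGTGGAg
TSC22D2: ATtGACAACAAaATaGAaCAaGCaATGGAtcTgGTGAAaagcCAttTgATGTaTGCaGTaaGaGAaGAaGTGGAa
TSC22D3: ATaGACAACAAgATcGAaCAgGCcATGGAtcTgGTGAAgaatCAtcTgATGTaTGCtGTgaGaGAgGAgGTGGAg
TSC22D4: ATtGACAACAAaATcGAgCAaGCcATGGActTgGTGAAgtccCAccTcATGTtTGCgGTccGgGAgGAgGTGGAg

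Of the 25 codons, 23 encode the same residue in all 4 genes, so most of the lower-case letters are silent differences. The block lies in the later part of each coding sequence, with 53 to 70 codons after it. It spans coding bases 2938 to 3012 of 3219 in TSC22D1 on chromosome 13 and 2056 to 2130 of 2340 in TSC22D2 on chromosome 3. It spans bases 346 to 420 of 600 in TSC22D3 on chromosome X and 952 to 1026 of 1185 in TSC22D4 on chromosome 7. NRBP1 lies on chromosome 2, NRBP2 on chromosome 8 and WNK1 on chromosome 12.

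Similar protein sequence does not make these transcripts hard to tell apart by reads. The longest run of identical bases between the transcripts of any pair of TSC22D genes was 23, and between NRBP1 and NRBP2 it was 14. The forms of one gene are another matter, because the counts are per gene. The annotation gives TSC22D1 complete coding sequences of 86, 144, 570 and 1073 codons, TSC22D3 from 58 to 200 and WNK1 from 393 to 2833. Long and short forms, which differ in whether they can bind NRBP1, are counted together in every value below.

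The deposited files give the authors' own comparison over 14597 features with an adjusted p-value, not a table of libraries. The deposited means are sums of whole reads over 5 libraries, 3 siHOTAIR and 2 siNC, so 1 of the 6 labelled libraries was not part of them. Reads of single libraries were worked back from these means and fold changes, with 1 solution for each of the 7 genes. Normalized counts, reads divided by the library's size factor, are given in the order of size factors 1.15, 0.934 and 0.888 for siHOTAIR and 1.19 and 0.893 for siNC. HOTAIR had 72, 73 and 53 reads in siHOTAIR libraries, against 241 and 134 reads in siNC libraries, and its mean normalized count was 37.9% of that in siNC. The hepatocyte markers did not bear out the label HepG2: HNF4A averaged 5.06 normalized counts, and APOA1, APOA2, TF, FGB and SERPINA1 averaged 0.167 to 0.382. No feature of the deposited comparison was matched to ALB, AFP, APOB, APOH, TTR or FGA. Summed over 5 of 6 fibroblast markers, normalized counts were 2147 to 2528 in siHOTAIR libraries, against 1234 to 1236 in siNC libraries, and 3 of the 4 that could be tested rose (COL1A1, PDGFRB and DCN). Sums over 4 of 5 endothelial markers were 91.0 to 121 in siHOTAIR libraries, against 73.7 to 76.2 in siNC libraries, and 1 of the 3 tested rose (VWF). VWF was near the floor, with 8, 5 and 12 reads in siHOTAIR libraries, against 0 and 1 in siNC libraries. Sums over 4 of 6 leukocyte markers were 132 to 158 in siHOTAIR libraries, against 184 to 205 in siNC libraries, and 1 of the 3 tested fell (CD68). Most of each of these sums came from 1 gene (COL1A1, CDH5 and CD68). Group means in siHOTAIR and siNC were 1943 and 1064 for COL1A1, 93.8 and 67.2 for CDH5 and 133 and 187 for CD68. CDH5 did not pass, and DCN had 26, 15 and 16 reads in siHOTAIR libraries, against 5 and 3 in siNC libraries. Over all features, 40.4% were called. No feature of the deposited comparison was matched to COL1A2, KDR, PTPRC or CD3E. The part of these marker differences in the results below was not tested, and in bulk RNA fewer cells of a type and less RNA per cell cannot be told apart.

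In the authors' deposited table, 4 of the 7 genes were higher in siHOTAIR at an adjusted p under 0.05 (TSC22D1, TSC22D4, NRBP2 and WNK1), 1 was lower (TSC22D3) and 2 did not pass (TSC22D2 and NRBP1). Over all features, 20.0% were higher and 20.4% were lower by the same rule, 40.4% in all. Since the comparison itself chose the set, nothing is read from this count. Only TSC22D1 changed by at least 2-fold, as 6.25% of all features did. The authors' own call word was Up for TSC22D1 and noDEG, not called as differential, for the other 6.

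**Figure D1:**
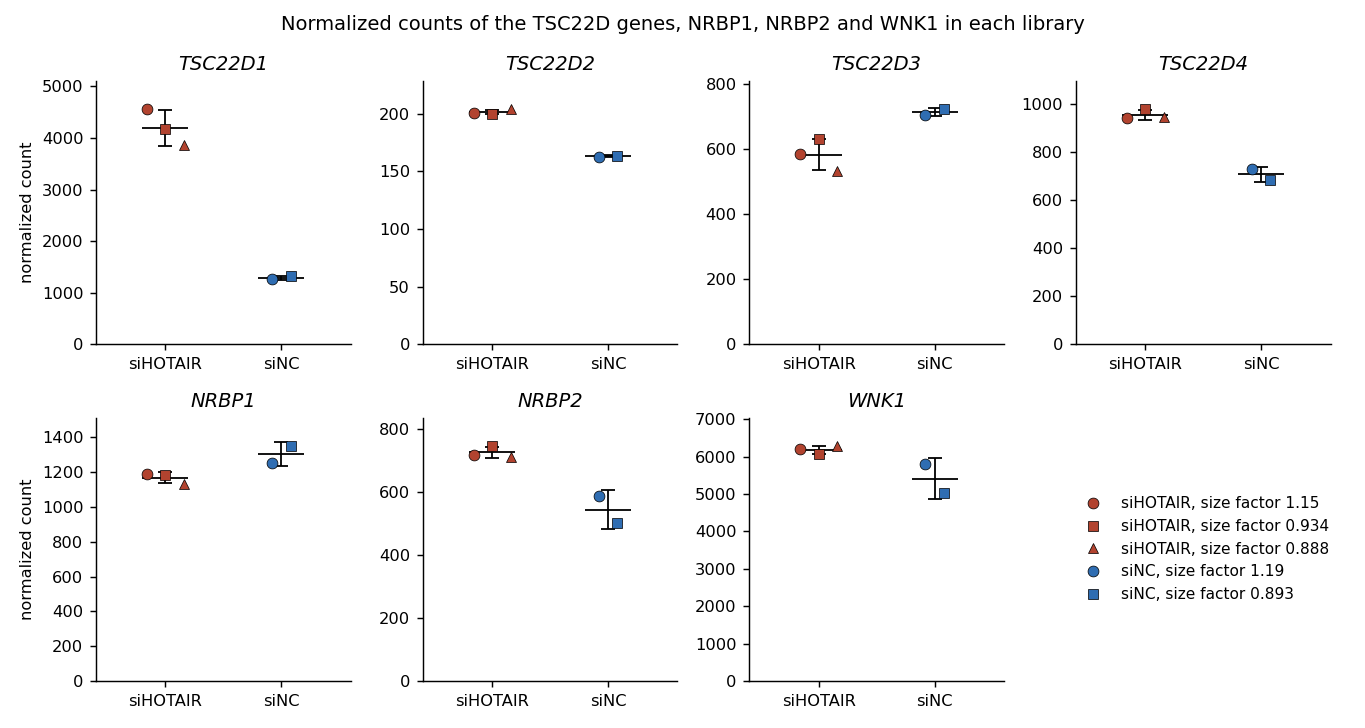
Normalized counts (y axis, from 0, a scale for each gene) of the 7 genes in the 3 siHOTAIR and 2 siNC libraries, with 1 point per library, the horizontal line at the group mean and the bar 1 SD each way. The TSC22D1 points lie at 3861 to 4558 in siHOTAIR and at 1265 and 1319 in siNC, while the groups of the other genes lie much closer together.

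TSC22D1 was abundant and changed in every library. It had 4558, 4174 and 3861 normalized counts in siHOTAIR libraries, against 1265 and 1319 in siNC libraries, from 5262, 3899 and 3427 reads against 1511 and 1177. The groups lay far apart, and the lowest siHOTAIR library stood 2542 normalized counts above the highest siNC library. Group means were 4198 ± 349 in siHOTAIR (SD, n = 3) and 1292 ± 38.0 in siNC (SD, n = 2). In the authors' deposited table this was a log2 fold change of 1.69 with a standard error of 0.0808 and an adjusted p of 2.74e-94. By size, the change ranked 72 from the top among the features tested. Leaving out single libraries moved the log2 ratio of group means between 1.64 and 1.76. Whether reads were counted by strand is unknown, and TSC22D1 shares 469 exon bases with its antisense gene TSC22D1-AS1. It also shares 535 exon bases with AL138960.2 on the opposite strand. In the authors' deposited table TSC22D1-AS1 had a mean of 9.05 normalized counts and a log2 fold change of 0.03 (adjusted p = 0.975).

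TSC22D4, which has been described in mouse liver as a regulator of lipid and insulin metabolism, rose as well, by a much smaller factor. It had 941, 979 and 947 normalized counts in siHOTAIR libraries, against 730.1 and 686 in siNC libraries. All siHOTAIR libraries were above both siNC libraries. The authors' deposited table gives a log2 fold change of 0.43 with a standard error of 0.0837 and an adjusted p of 2.55e-06. TSC22D4 shares 391 exon bases with the protein-coding gene C7orf61 on the same strand, and the part of this overlap was not tested.

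TSC22D3, also called GILZ, is a glucocorticoid-induced member that dampens NF-kappaB and AP-1 signalling in immune cells, and it was the member of the family that fell. It had 584, 631 and 533 normalized counts in siHOTAIR libraries, against 704 and 722 in siNC libraries. The siHOTAIR libraries were all lower, with more spread among themselves than between the siNC libraries. In the authors' deposited table its log2 fold change was -0.29 with a standard error of 0.0954 and an adjusted p of 0.00838.

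TSC22D2, a long member with a role reported in growth control of tumour cells, had the fewest reads of the 7. There were 201, 200.2 and 204 normalized counts in siHOTAIR libraries, against 162 and 164 in siNC libraries. Libraries within each group were nearly alike and the groups did not overlap. The change still did not pass in the authors' deposited table, with a log2 fold change of 0.30, a 95% interval of 0.02 to 0.59 and an adjusted p of 0.084.

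**Figure D2:**
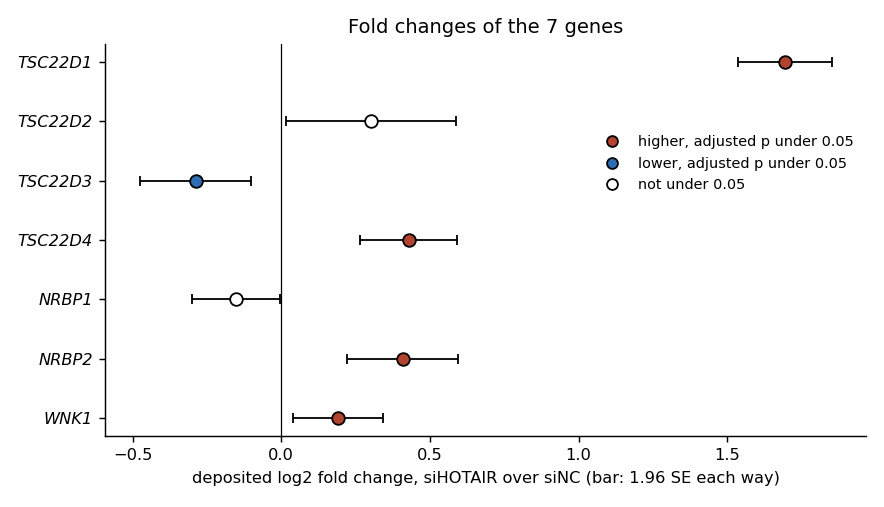
Log2 fold changes of siHOTAIR over siNC from the authors' deposited table (x axis) for the 7 genes (rows), with bars for the 95% interval and the fill showing direction and adjusted p. TSC22D1 stands alone at 1.69, TSC22D4, NRBP2 and TSC22D2 lie between 0.30 and 0.43, WNK1 is at 0.19, and NRBP1 and TSC22D3 are below 0.

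After scaling by transcript length, these unequal changes altered which family member was most abundant. By normalized counts alone TSC22D1 led the family in both groups. In siNC it averaged 1292, against 713 for TSC22D3 and 708 for TSC22D4. Levels of different genes were compared as normalized counts per kilobase of the longest coding transcript. On that scale TSC22D1 had 871 ± 72.5 in siHOTAIR (SD, n = 3) and 268 ± 7.88 in siNC (SD, n = 2). Its rank among the 7 genes was 1 in siHOTAIR and 5 in siNC. TSC22D3 had 257 ± 21.6 per kilobase in siHOTAIR and 315 ± 5.44 in siNC. TSC22D4 had 401 ± 8.45 in siHOTAIR and 297 ± 13.2 in siNC. TSC22D2 was the lowest of the 7 in both groups, at 18.1 ± 0.175 per kilobase in siHOTAIR and 14.6 ± 0.0735 in siNC. From high to low, the order in siHOTAIR was TSC22D1, WNK1, NRBP1, TSC22D4, TSC22D3, NRBP2 and TSC22D2, and NRBP1 and TSC22D4 overlapped between libraries. In siNC it was WNK1, NRBP1, TSC22D3, TSC22D4, TSC22D1, NRBP2 and TSC22D2, and WNK1 and NRBP1 overlapped.

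The summed per-kilobase level of the 4 TSC22D genes was 1547 ± 85.1 in siHOTAIR and 894 ± 0.228 in siNC. TSC22D1 made up 58.5%, 55.1% and 55.2% of that sum in siHOTAIR libraries, against 29.4% and 30.6% in siNC libraries. On this per-kilobase scale, TSC22D1 was thus the main TSC22D transcript in every siHOTAIR library and in neither siNC library. The share of TSC22D3 averaged 16.6% in siHOTAIR and 35.2% in siNC, and that of TSC22D4 averaged 26.0% in siHOTAIR and 33.2% in siNC. With the length of all annotated exons in place of the longest coding transcript, the TSC22D1 share averaged 55.2% in siHOTAIR and 29.8% in siNC. On that length TSC22D4 was the highest of the family in siNC, with 191 per kilobase, and TSC22D1 and TSC22D3 had 150.5 and 149.6. Which forms of each gene are used is unknown here, so the shares and the leading member in siNC depend on the length chosen.

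**Figure D3:**
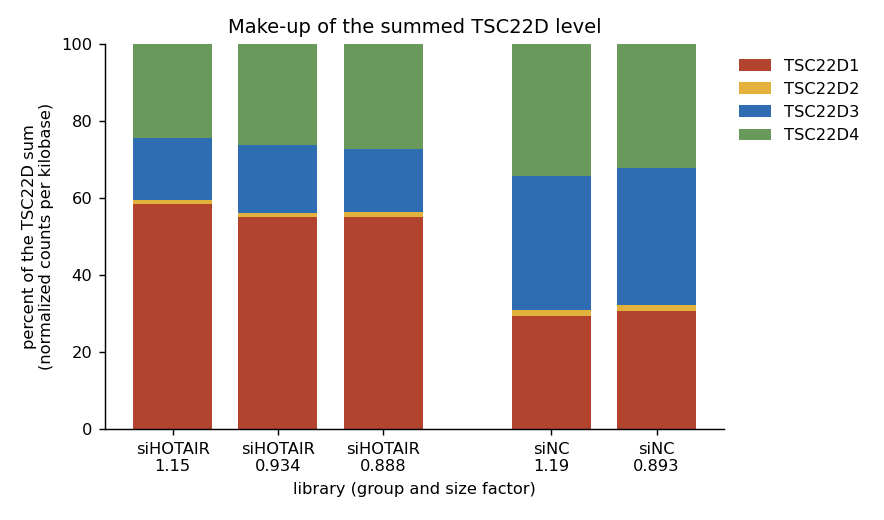
Share of each TSC22D gene in the summed TSC22D level (y axis, percent of normalized counts per kilobase of the longest coding transcript) in each library, with the 3 siHOTAIR libraries left of the 2 siNC libraries. TSC22D1 fills 55.1% to 58.5% of the bars in siHOTAIR and 29.4% to 30.6% in siNC.

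Of the pseudokinases that bind long TSC22D forms, NRBP2 rose and NRBP1 did not pass, and the difference between them was not tested. NRBP1, an adaptor also found in cullin ubiquitin ligase complexes, had 1192, 1184 and 1131 normalized counts in siHOTAIR libraries, against 1253 and 1351 in siNC libraries. The siHOTAIR values lay just under the siNC values. In the authors' deposited table its log2 fold change of -0.15, with a standard error of 0.0759, did not pass (adjusted p = 0.0966). Rescaling to equal summed normalized counts in both groups, a shift of 0.0955 on the log2 scale, would put it at -0.25 with an adjusted p of 0.00386.

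NRBP2, its less studied paralogue, had 719.9, 747 and 712 normalized counts in siHOTAIR libraries, against 588 and 501 in siNC libraries. The siNC libraries differed from each other more than the siHOTAIR libraries did, and all siHOTAIR libraries were higher. The authors' deposited table gives a log2 fold change of 0.41 with a standard error of 0.0959 and an adjusted p of 0.000115. Leaving out single libraries moved the log2 ratio of group means between 0.31 and 0.54. Per kilobase, NRBP1 remained above NRBP2 in both groups, at 405 and 202.5 in siHOTAIR and at 451 and 152 in siNC. NRBP2 shares 432 exon bases with AC234917.2 on the opposite strand.

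WNK1, the kinase at the head of the SPAK and OSR1 cascade, had the most reads of the 7 and changed little. It had 6189, 6065 and 6283 normalized counts in siHOTAIR libraries, against 5790.2 and 5015 in siNC libraries. The siHOTAIR libraries were close together and above both siNC libraries, which were far from each other. In the authors' deposited table its log2 fold change was 0.19 with a standard error of 0.077 and an adjusted p of 0.0335. The size rests on which siNC library is used, with a log2 ratio of group means of 0.30 without the siNC library of size factor 1.19 and of 0.094 without the one of 0.893. After rescaling to equal summed counts it was 0.097, with an adjusted p of 0.335.

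**Figure D4:**
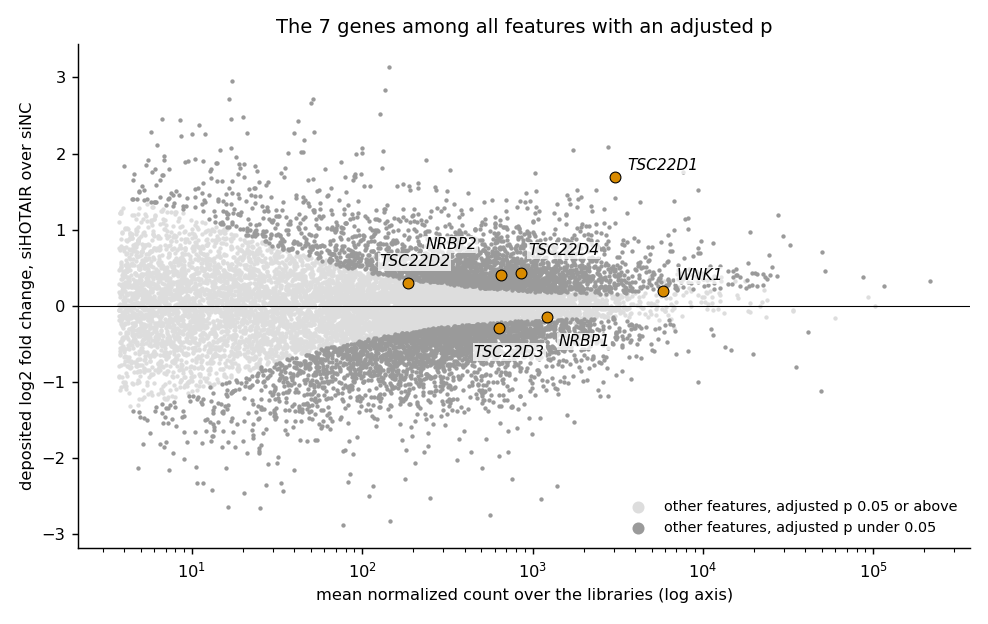
Log2 fold change of siHOTAIR over siNC from the authors' deposited table (y axis) against the mean normalized count (x axis, log scale) for all 14597 features with an adjusted p, with the 7 genes in orange. TSC22D1 lies at the upper edge of the features of its abundance, and the other 6 lie within the bulk.

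Few features of like abundance rose as much as TSC22D1. The gene was chosen by its fold change in this same comparison, so its high place follows from that choice. Of 951 features with a mean within a factor of 2 of its own, 2 had a higher log2 fold change in the authors' deposited table. The 5 with the nearest log2 fold change in the authors' deposited table were PCNX3 at 1.52, EPN1 at 1.52, PERP at 1.45, LPCAT1 at 1.43 and ADAM15 at 1.42. Likeness here is the difference in log2 fold change between 2 groups and says nothing of shared function.

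Beside the 7 genes stand 8 lists of genes tied to these proteins by description, with 82 of 88 distinct genes tested, 24 higher and 19 lower. That is 52.4% called, against 40.4% of all features. The lists were chosen with earlier results of these data known, so nothing is read from this difference. Of all features, 20.0% were higher and 20.4% lower, the shares to set beside the counts of each list below. The median log2 fold change over all features was 0.0069.

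Of the WNK, SPAK and OSR1 axis, 10 of 12 genes were tested by the authors' DESeq2 fit, 0 rose, 4 fell and 6 did not pass, with a median log2 fold change of -0.30. At an unadjusted p under 0.05 the count of higher genes was also 0. The share of the list called in either direction was near the 40.4% of all features. OXSR1, which encodes OSR1, the kinase that WNK1 activates, had 528, 476 and 468 normalized counts in siHOTAIR libraries, against 773 and 764 in siNC libraries. The groups were well apart, and its log2 fold change in the authors' deposited table was -0.64 (adjusted p = 1.8e-10). The others that fell were SGK1, a kinase of the salt response, CUL3, the cullin of the ligase that degrades WNK kinases, and CAB39, the scaffold of SPAK and OSR1. Log2 values of the authors' deposited table were -0.32 for SGK1, -0.36 for CUL3 and -0.27 for CAB39. KLHL3, the adaptor of that ligase, had a log2 fold change of -1.03 in the authors' deposited table that did not pass (adjusted p = 0.0596). Reads of KLHL3 were few, with 4, 12 and 9 in siHOTAIR libraries, against 20 and 22 in siNC libraries.

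Of the SLC12 family, the cation-chloride cotransporters on which the cascade acts, 8 of 9 were tested, with 1 higher, 2 lower and 5 not passing, and a median of -0.05. SLC12A9, an orphan member, rose by 0.49 on the log2 scale in the authors' deposited table. SLC12A4, the potassium-chloride cotransporter KCC1, fell, with a log2 fold change of -0.24 in the authors' deposited table.

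Of 11 cell volume and osmotic response genes, 2 rose, 5 fell and 4 did not pass, with a median of -0.30. SLC5A3, the sodium-coupled importer of the osmolyte myo-inositol, had 217, 203 and 207 normalized counts in siHOTAIR libraries, against 568 and 452 in siNC libraries. Every siHOTAIR library was under both siNC libraries, and the log2 fold change in the authors' deposited table was -1.28 (adjusted p = 1.83e-22). The taurine importer SLC6A6, the osmotic response factor NFAT5 and aldose reductase AKR1B1, which makes sorbitol, fell too. On the log2 scale, the authors' deposited table has -0.49 for SLC6A6, -0.53 for NFAT5 and -0.44 for AKR1B1. LRRC8A, the obligatory subunit of the volume-regulated anion channel, rose by 0.53 on the log2 scale in the authors' deposited table.

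**Figure D5:**
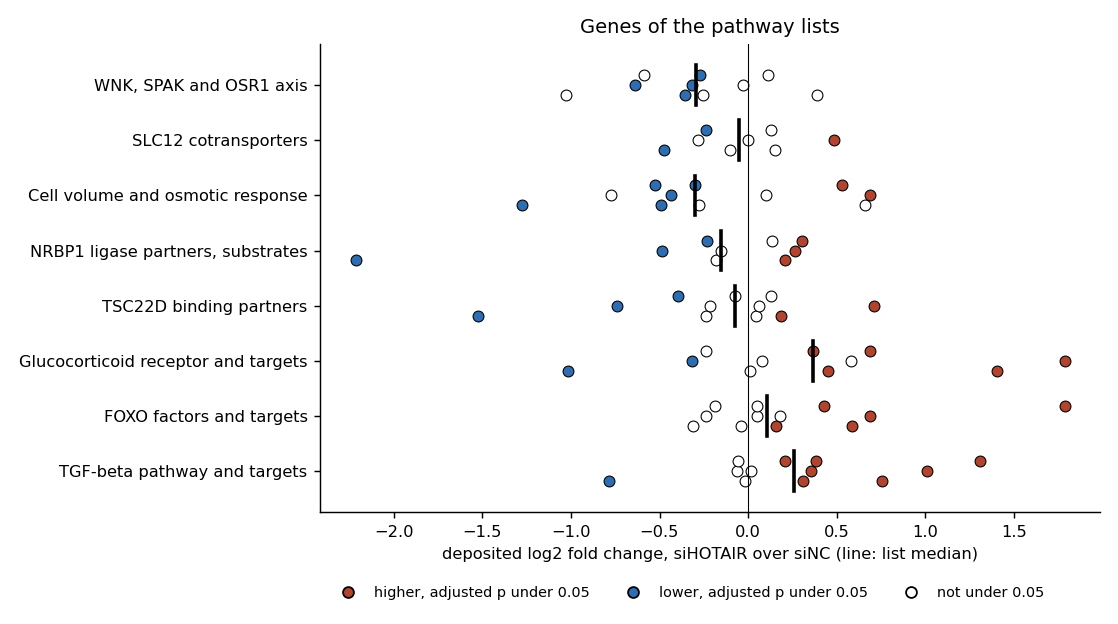
Log2 fold change of siHOTAIR over siNC from the authors' deposited table (x axis) for each tested gene of 8 lists (rows), with the fill showing direction and adjusted p and the black line the list median. The medians lie between -0.30 for the WNK axis and the cell volume genes and 0.37 for the glucocorticoid list.

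Of 9 described partners and substrates of NRBP1 in ubiquitin ligases, 3 rose, 3 fell and 3 did not pass, with a median of -0.15. SALL4, a zinc finger factor of fetal liver and liver tumours that accumulates when Nrbp1 is lost in mice, had 32.9, 35.3 and 30.4 normalized counts in siHOTAIR libraries, against 176 and 147 in siNC libraries. It showed the largest change among the 82 tested list genes, with a log2 fold change of -2.21 in the authors' deposited table (adjusted p = 1.51e-21). The cullin CUL2 fell, while ITM2B and ITM2C, which encode the BRI2 and BRI3 proteins described as substrates, rose. By log2 fold change the authors' deposited table has -0.49 for CUL2, 0.30 for ITM2B and 0.26 for ITM2C. The cullin CUL4A rose and COPS5, a subunit of the COP9 signalosome, fell, with 0.21 for CUL4A and -0.23 for COPS5 on the log2 scale of the authors' deposited table.

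Of 11 described binding partners of TSC22D proteins, 2 rose, 3 fell and 6 did not pass, with a median of -0.07. FOS, an AP-1 subunit bound by TSC22D3, had 988, 1026 and 994 normalized counts in siHOTAIR libraries, against 2939 and 2837 in siNC libraries. It was lower in each siHOTAIR library, with a log2 fold change of -1.52 in the authors' deposited table (adjusted p = 4.35e-104). NFKB1, a subunit of NF-kappaB, had a log2 fold change of -0.74 in the authors' deposited table. RELA, another subunit of NF-kappaB, rose slightly, by 0.19 on the log2 scale in the authors' deposited table (adjusted p = 0.046). AIFM1, a mitochondrial flavoprotein described as a TSC22D4 partner, had one of -0.39 in the authors' deposited table. AKT1, a kinase described as a TSC22D4 partner, rose by 0.71 on the log2 scale in the authors' deposited table.

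TSC22D3 is a textbook target of the glucocorticoid receptor and of FOXO factors, and TSC22D1 of TGF-beta. Of 11 tested glucocorticoid receptor genes, 5 rose, 2 fell and 4 did not pass, with a median of 0.37. The receptor gene NR3C1 rose by 0.45, and its targets FKBP5, CDKN1C and PDK4 rose by 0.69, 1.41 and 1.79 on the log2 scale in the authors' deposited table, where TSC22D3 itself and SGK1 were lower. DUSP1, a phosphatase of MAP kinases, rose by 0.37 on the log2 scale in the authors' deposited table. ANGPTL4, a lipase inhibitor, fell, with a log2 fold change of -1.02 in the authors' deposited table.

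Of 12 tested FOXO genes, 5 rose, 0 fell in the authors' DESeq2 fit and 7 did not pass, with a median of 0.10. At an unadjusted p under 0.05 the count of lower genes was also 0. FOXO4 rose by 0.69, the coactivator CITED2 by 0.58 and the insulin receptor substrate IRS2 by 0.43 on the log2 scale in the authors' deposited table. TXNIP, a thioredoxin-binding protein, rose by 0.15 on the log2 scale in the authors' deposited table. PDK4, a kinase that restrains pyruvate oxidation and is held in both lists, had 476, 485 and 418 normalized counts in siHOTAIR libraries, against 142 and 118 in siNC libraries. Its libraries in the 2 groups lay far apart.

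Of 12 TGF-beta pathway genes, 7 rose, 1 fell and 4 did not pass, with a median of 0.26. ID3, an inhibitor of helix-loop-helix factors, had 3037, 2893 and 2790 normalized counts in siHOTAIR libraries, against 1120 and 1222 in siNC libraries. ID1, of the same family, had 1658, 1744 and 1670 in siHOTAIR libraries, against 768 and 909 in siNC libraries. Neither gene overlapped between groups, and on the log2 scale the authors' deposited table has 1.31 for ID3 and 1.01 for ID1. The receptor gene TGFBR1 rose by 0.76, and the inhibitory SMAD6 and SKIL by 0.38 and 0.35 on the log2 scale in the authors' deposited table.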

How the data were processed

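Titles of the libraries gave the groups. The build hg19 and the tools HTSeq 0.6.1, DESeq and DESeq2 are named per the submitters' processing notes, with aligner, annotation and strand setting not given. The signal deposited by the authors is a mean of size-factor-scaled counts. The log2 fold changes, standard errors and p-values are the authors', as deposited, with column names of DESeq2 per the file headers. The score deposited by the authors is the ratio of log2 fold change to standard error. There were 0 columns of single libraries, so a planned edgeR test of counts was not run, and "rose" or "fell" means an adjusted p under 0.05 in the deposited table. The 7 genes and the lists were chosen with earlier results of these data known.

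Library reads were recovered as whole numbers that give both the deposited mean and the deposited log2 fold change, refitted with a prior variance of 0.711 on the log2 scale. For the 7 genes the refitted log2 fold changes differed by at most 3.18e-10, and the next candidate missed by at least 1.43e-05. The procedure was tested on simulated data and recovered 18 of 18 features. The means set in the simulation lay below those of TSC22D1, WNK1 and, narrowly, NRBP1, so the simulation does not cover these genes. Simulated fold changes came from the same fit that was used for recovery. A group was given to each library from the sign of fold changes of features with a single read. Total reads per library are unknown, and depth is given as reads per gene. Leaving out libraries, other thresholds, adjustments and scalings were the alternatives.

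Symbols came from RefSeq (GRCh38.p14), which matched 19108 IDs by gene ID and 386 by accession, with 95 unmatched. Coding sequences and lengths came from GENCODE 29, and no coordinates are printed since the build differs. Named genes were the 7, HOTAIR, the markers, per list 6 that passed and 3 others at most, by smallest p, and the 5 features nearest to TSC22D1. Some list members that this rule names are counted but not reported by name. Tools were Python 3.11.15, NumPy 2.4.6, SciPy 1.17.1 and Biopython 1.88.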

Additional observations from a re-analysis of the deposited data

How the results depend on the processing

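Asking also for a change of at least 2-fold left 1 gene higher and 0 lower of the 7, the call words of the other deposited table gave 1 and 0, and an adjusted p under 0.001 left 0 lower. Rescaling to equal summed counts gave 2 lower (TSC22D3 and NRBP1) and ended the call of WNK1. Leaving out each library in turn moved the log2 ratio of group means between 0.39 and 0.48 for TSC22D4, between 0.31 and 0.54 for NRBP2 and between 0.094 and 0.30 for WNK1. It lay between 1.64 and 1.76 for TSC22D1, 0.30 and 0.31 for TSC22D2, -0.35 and -0.23 for TSC22D3 and -0.21 and -0.10 for NRBP1. No direction of the 7 genes reversed under these alternatives. The counts over the lists were recomputed only at an adjusted p under 0.01 and under 0.001, with adjustment over every feature and with centring on the median, and stayed within 1.5 times. DESeq2 and edgeR fits were not run, since they need counts of each library over all features. No paired analysis was possible because the deposited columns carry no replicate numbers. With 2 siNC libraries the SD of that group is poorly known, and low counts limit HNF4A and the other liver markers.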
